A study of Mus musculus with 10 samples.

Results

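Genes that mark somatic motor neurons and acetylcholine signalling, several of them shared with sensory neurons, were followed in the brainstem and rostral spinal cord of pups lacking the transcription factor Nkx2.2. The set comprised Chat, Slc18a3, Slc5a7, Ache, Isl1, Isl2, Mnx1, Prph, Calca and Calcb, and its members were all probe sets whose platform gene symbol names 1 of these genes. This gave 13 of 45037 non-control probe sets, for 9 of the 10 genes, and none of the 13 carried a second symbol. Calca was not analysed here. The groups were 5 wild-type mice (numbered 14, 15, 16, 18 and 21 in the labels) and 5 Nkx2.2-/- mice, here also called mutants (numbered 11, 12, 22, 29 and 43), littermates of the C57BL/6 strain taken at 1.5 to 2 days after birth without treatment beyond anaesthesia and perfusion. The RNA of each mouse came from pons, medulla and rostral spinal cord cut from 20 µm sections and was read on 1 array. The labels do not describe the mutant allele, so which part of the gene it removes is not known here, and they give neither the sex nor the litter of a mouse.

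Somatic motor neurons of the brainstem and spinal cord use acetylcholine to drive muscle. Their identity is set by LIM homeodomain factors such as Isl1 together with Mnx1, and their transmitter phenotype by the choline acetyltransferase Chat, the vesicular transporter Slc18a3 and the choline transporter Slc5a7. Nkx2.2 acts in the most ventral neural progenitors, next to the progenitors of somatic motor neurons, and is known to hold back motor neuron fate there in favour of V3 interneurons in the spinal cord. Where along the neuraxis a block is cut decides which motor pools and how much attached ganglion tissue it can hold, and Hox genes, which are expressed in nested domains from hindbrain to tail, record that level.

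Chat and Slc18a3 form the cholinergic gene locus, in which Slc18a3 starts inside the Chat gene on the same strand, 1059 bases from the Chat start in the RefSeq annotation of GRCm38.p6. Their upstream sequences are shown because the probe sets of the pair behaved differently between arrays, and that of Isl2 because it holds an NK2-type core. Whether these sequences bear on the array values was not tested. RefSeq upstream windows were matched for 8 of the 9 measured genes, all but Calcb. Each line gives the 250 bases before the annotated start, 5′ to 3′ on the gene's strand. Capitals mark AAGTGG on either strand (CCACTT where it lies on the other), a core of sites bound by NK2 homeodomain proteins.
Chat, chr14:32465910-32466159, minus strand: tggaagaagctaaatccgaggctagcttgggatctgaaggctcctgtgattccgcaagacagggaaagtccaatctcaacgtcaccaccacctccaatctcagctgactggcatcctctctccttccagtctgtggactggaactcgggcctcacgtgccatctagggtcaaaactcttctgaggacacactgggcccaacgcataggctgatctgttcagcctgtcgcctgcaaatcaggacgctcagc
Slc18a3, chr14:32464851-32465100, minus strand: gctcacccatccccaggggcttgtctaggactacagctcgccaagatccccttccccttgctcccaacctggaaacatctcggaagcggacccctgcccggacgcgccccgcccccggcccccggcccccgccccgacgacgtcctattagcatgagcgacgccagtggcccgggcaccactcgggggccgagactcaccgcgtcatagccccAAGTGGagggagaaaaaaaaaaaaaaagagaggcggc
Isl2, chr9:55540899-55541148, plus strand: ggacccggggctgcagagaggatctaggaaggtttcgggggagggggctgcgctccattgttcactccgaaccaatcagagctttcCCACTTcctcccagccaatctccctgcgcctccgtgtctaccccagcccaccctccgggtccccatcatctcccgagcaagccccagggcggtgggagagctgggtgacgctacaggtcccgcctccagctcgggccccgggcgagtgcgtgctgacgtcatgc
AAGTGG stood once in the Slc18a3 window and once, on the opposite strand, in the Isl2 window, and in none of the other 6. Over all 32851 RefSeq windows of this length 14.1% held it. The homeodomain core TAATTA, which reads the same on both strands and was counted separately, stood in 0 of the 8 windows and in 4.84% of all. These matches are descriptions of letters and not sites.

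Nkx2-2 itself checked the labels: its 1 probe set averaged 6.55 ± 0.186 in wild type and 4.51 ± 0.207 in Nkx2.2-/- mice (SD, n = 5 each), on the log2 scale of the deposited RMA values that is used throughout. Array medians lay between 5.07 and 5.12. A pair of arrays stood apart by their Gapdh control probe sets. The 3 prime probe set exceeded the 5 prime one by 2.13 on the array of wild-type mouse 14 and by 3.78 on that of mutant 43, while the remaining 8 arrays gave -0.32 to 0.13. Hox levels also differed between mice. The mean of Hoxa5, Hoxb5 and Hoxc5, called the cervical Hox score, was 6.2 in wild-type mouse 18 and 6.55 in mutant 11, against 7.45 to 8.11 in the other 8 mice. The caudal Hox score, the mean of 13 measured genes of paralog groups 6 to 10, was 5.30, 5.50 and 5.55 in mutants 43, 22 and 29 and ran from 4.93 to 5.18 in the other 7 mice. Hoxc8, which varied most among those genes, was at 6.17, 7.22 and 6.96 in the same 3 mice and between 4.53 and 4.84 in the rest. Hoxb6, with nearly the same range over mice (2.67), was instead low in mice 18 and 11, at 5.50 and 5.39 against 6.50 to 8.06, and Hoxb9, the third by range (1.30), was highest in mutants 29 and 22, at 5.96 and 5.41. The caudal score was 5.07 ± 0.106 in wild type and 5.31 ± 0.227 in Nkx2.2-/- mice (SD, n = 5 each), a difference of 0.24 that did not pass the exact two-sided permutation test (p = 0.0952, with 0.00794 the smallest that 5 against 5 can give). The call depended on the choice of genes and mice, since the same exact test gave p = 0.0159 for paralog groups 8 to 10 (difference 0.24), for HoxC genes (0.43) and without mutant 11 (0.31).

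No member passed the test for a difference between genotypes. Of the 13 probe sets, 0 rose and 0 fell (limma, Benjamini-Hochberg over all probe sets at 0.05), against 0.0511% of all probe sets called, which were 23 that fell and 0 that rose. At an unadjusted limma p under 0.05, 1 of 13 probe sets stood out, a Prph probe set near the array medians, beside 3.43% of all probe sets. The groups overlapped for every member, whereas 0.757% of all probe sets had groups that did not overlap. By sign 10 were higher and 3 lower in Nkx2.2-/- mice, with a median log2 change of 0.03 beside 0.001 over all probe sets and 50.8% of them positive. In bulk tissue fewer cells of a type and less RNA per cell cannot be told apart. The p-values weigh each difference against the spread between these mice and treat the mice as independent. Nothing in the labels says whether mice of a group shared a litter, so that independence could not be checked.

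**Figure D1:**
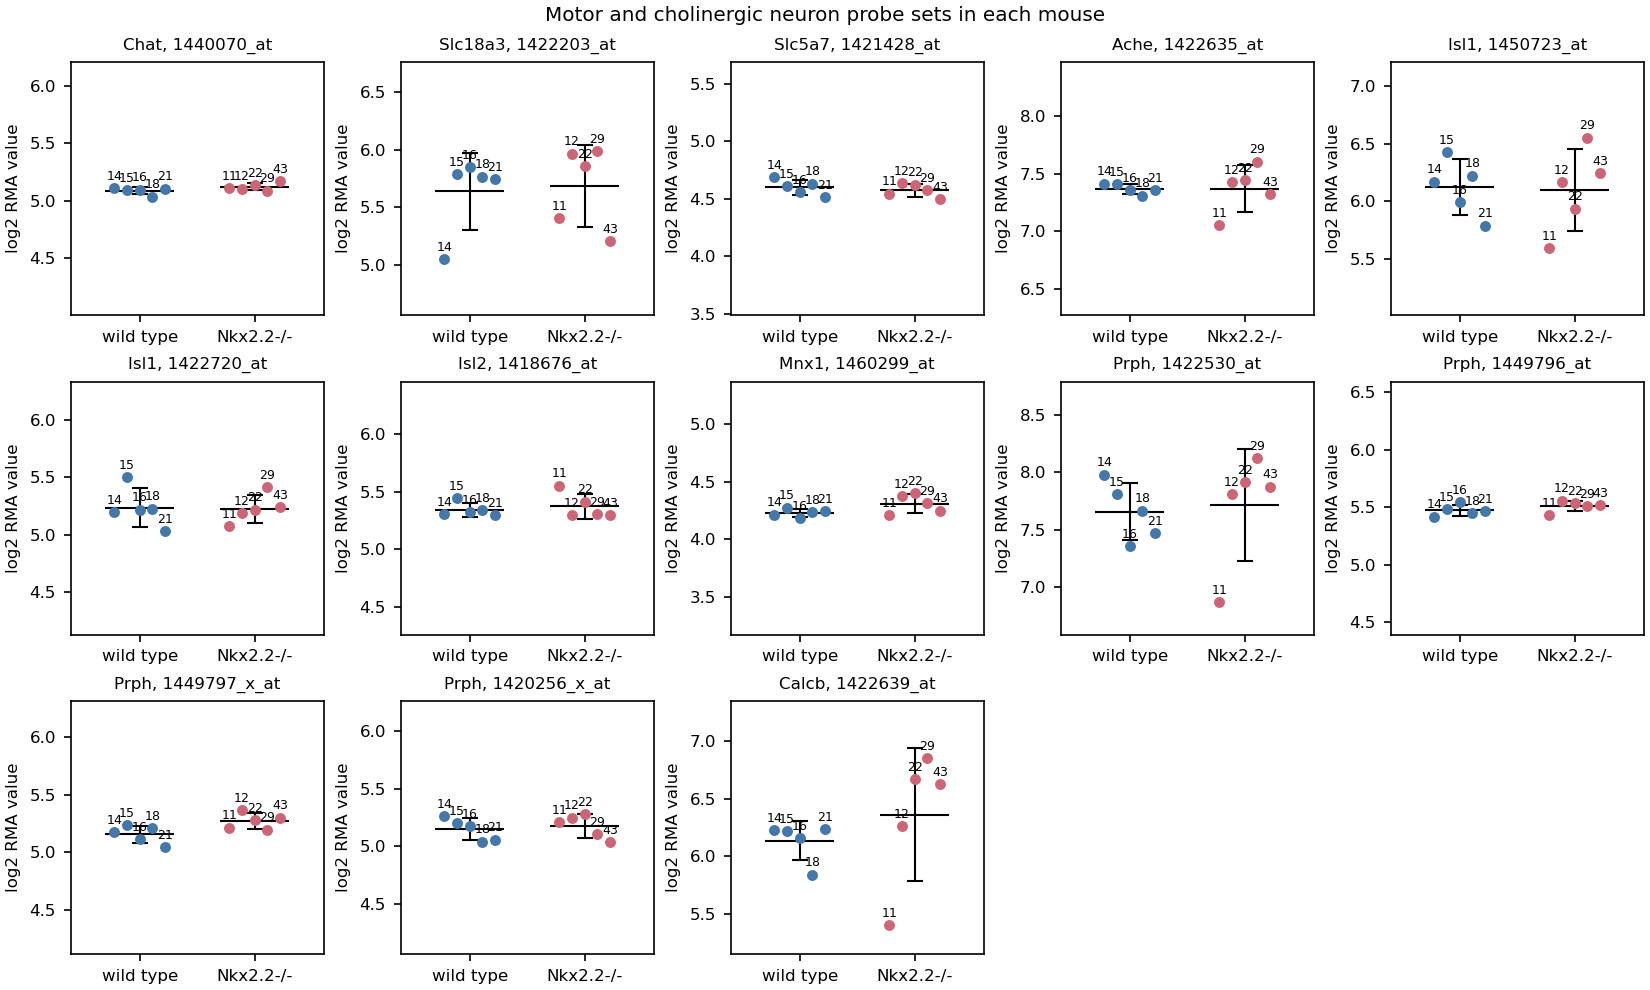
Log2 RMA values of the 13 member probe sets in each mouse, wild type in blue and Nkx2.2-/- in red, with mouse numbers beside the points, the mean as a line and the SD as bars (n = 5 each), on vertical axes of equal span. The groups overlap in all 13 panels, and Calcb and the brightest Prph probe set spread most, with mutant 11 lowest in both.

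Among the genes of acetylcholine synthesis and storage, Chat, which makes acetylcholine, was nearly flat. Its probe set was at 5.11, 5.09, 5.10, 5.03 and 5.11 in wild-type mice 14, 15, 16, 18 and 21 and at 5.11, 5.11, 5.13, 5.09 and 5.17 in mutants 11, 12, 22, 29 and 43. These values lie at the array medians and span 0.14 in all. The values carry no detection calls, so whether this probe set detected Chat RNA is not known. The difference was 0.03 with a 95% interval of -0.04 to 0.11 (limma adjusted p = 0.9997).

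Slc18a3, which loads acetylcholine into synaptic vesicles, varied far more. It was at 5.05, 5.79, 5.85, 5.77 and 5.74 in wild-type mice 14, 15, 16, 18 and 21. In mutants 11, 12, 22, 29 and 43 it was at 5.41, 5.96, 5.86, 5.98 and 5.20. Both groups thus held 1 array near 5.1, wild-type mouse 14 and mutant 43. These were the same pair whose 3 prime minus 5 prime Gapdh difference was large, and mutant 11 lay between these and the rest. The genotype difference was 0.05 with a 95% interval of -0.37 to 0.46 (limma adjusted p = 0.9997), and 0.02 without that pair. When every probe set was fitted on genotype and the Gapdh difference, Slc18a3 fell by 0.20 on the log2 scale per unit of that difference (limma adjusted p = 0.0169). It was the 1 member of 13 called in this fit, a share below the 11.8% of all probe sets called in either direction (4.13% with a negative slope). The slope rested on these arrays: it was -0.15 without wild-type mouse 14 (limma adjusted p = 0.0952) and -0.31 without mutant 43 (limma adjusted p = 0.103), and without both it was 0.12 (limma adjusted p = 0.999). For Chat the same slope was 0.02 (limma adjusted p = 0.616) and for Slc5a7, the choline transporter of cholinergic terminals, it was -0.004 (limma adjusted p = 0.937).

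**Figure D2:**
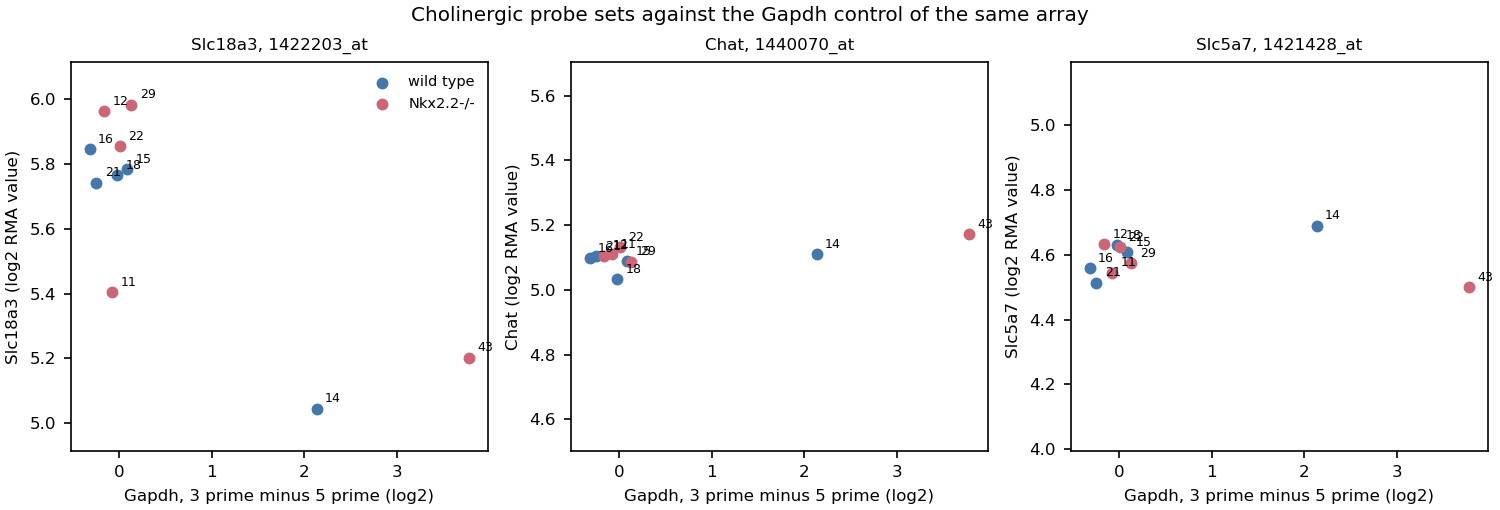
Log2 RMA values of Slc18a3, Chat and Slc5a7 against the 3 prime minus 5 prime difference of the Gapdh control on the same array, 1 point per mouse with its number, wild type in blue and Nkx2.2-/- in red. Slc18a3 was at 5.05 and 5.20 on the arrays whose Gapdh difference was 2.13 and 3.78, while Chat and Slc5a7 were flat.

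Slc5a7 was at 4.69, 4.61, 4.56, 4.63 and 4.51 in wild-type mice 14, 15, 16, 18 and 21 and at 4.54, 4.63, 4.62, 4.57 and 4.50 in mutants 11, 12, 22, 29 and 43. It lay below the array medians on every array and its groups overlapped throughout (difference -0.02, 95% interval -0.12 to 0.07, limma adjusted p = 0.9997). Ache, the enzyme that breaks acetylcholine down at synapses and is also made by muscle and by many neurons that are not cholinergic, gave the tightest wild-type group of the brighter members. It was at 7.41, 7.41, 7.36, 7.31 and 7.36 in wild-type mice 14, 15, 16, 18 and 21. Mutants 11, 12, 22, 29 and 43 were at 7.05, 7.43, 7.45, 7.60 and 7.32, so that the lowest and the highest mouse were both Nkx2.2-/-. The means were equal at 7.37, with SDs of 0.0435 and 0.204 (n = 5 each), and the difference had a 95% interval of -0.19 to 0.19 (limma adjusted p = 0.9997).

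Of the homeodomain factors, Isl1, which marks motor neurons, sensory ganglia and some forebrain neurons, was read by 2 probe sets that list the same target accession. The brighter was at 6.17, 6.43, 5.99, 6.22 and 5.79 in wild-type mice 14, 15, 16, 18 and 21 and at 5.59, 6.16, 5.93, 6.55 and 6.24 in mutants 11, 12, 22, 29 and 43. Both probe sets were highest in wild-type mouse 15 within wild type and in mutant 29 within its group, and lowest in mice 21 and 11. Their differences were -0.02 and -0.01, with 95% intervals of -0.40 to 0.35 and -0.20 to 0.18 (limma adjusted p = 0.9997 for both). Isl2, a paralog expressed in early motor and sensory neurons, ran from 5.29 to 5.44 in wild type and from 5.29 to 5.55 in Nkx2.2-/- mice. Mouse 11, the lowest Nkx2.2-/- mouse for Isl1, was the highest of all for Isl2, and the genotype difference of Isl2 was 0.03 (95% interval -0.09 to 0.16, limma adjusted p = 0.9997).

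Mnx1, the homeodomain factor that separates motor neurons from interneurons, was at 4.21, 4.27, 4.18, 4.23 and 4.24 in wild-type mice 14, 15, 16, 18 and 21 and at 4.21, 4.37, 4.40, 4.31 and 4.25 in mutants 11, 12, 22, 29 and 43. In Nkx2.2-/- mice 4 of 5 values lay above the wild-type median, mouse 11 being the exception. The difference was 0.08 (SE 0.0443, 95% interval -0.02 to 0.18, limma adjusted p = 0.9997), with p = 0.0952 in an exact permutation test, two-sided and unadjusted. The Mnx1 probe set is dim, with 10.5% of all probe sets below it in mean value.

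Prph encodes peripherin, an intermediate filament of motor neurons, sensory ganglia and other neurons with peripheral axons. Its brightest probe set was at 7.98, 7.81, 7.36, 7.66 and 7.47 in wild-type mice 14, 15, 16, 18 and 21. It was at 6.87, 7.81, 7.91, 8.12 and 7.87 in mutants 11, 12, 22, 29 and 43. Mutant 11 was the lowest mouse of all and the other 4 Nkx2.2-/- mice lay in the upper part of the wild-type range or above it. Group means of 7.66 ± 0.250 and 7.72 ± 0.487 (SD, n = 5 each) gave a difference of 0.06 (95% interval -0.41 to 0.53, limma adjusted p = 0.9997), and it was 0.27 without mutant 11 (limma adjusted p = 1.0). The other 3 Prph probe sets lay near the array medians, with all values between 5.04 and 5.56, and did not share this spread. Of these, the second brightest of the 3 was at 5.18, 5.23, 5.12, 5.21 and 5.04 in wild type and 5.21, 5.37, 5.28, 5.20 and 5.30 in Nkx2.2-/- mice, in the order of mice above. Its difference of 0.12 (SE 0.0487) had a 95% interval of 0.01 to 0.22 that leaves out 0 before adjustment (limma adjusted p = 0.9997). The differences of the other two were 0.04 and 0.03.

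Calcb, which encodes the beta form of calcitonin gene-related peptide, a peptide of motor and sensory neurons, spread most of all members. It was at 6.23, 6.22, 6.16, 5.84 and 6.24 in wild-type mice 14, 15, 16, 18 and 21 and at 5.40, 6.26, 6.67, 6.85 and 6.63 in mutants 11, 12, 22, 29 and 43. The highest and the lowest mouse, both Nkx2.2-/-, were 2.74-fold apart. Group means of 6.14 ± 0.168 and 6.36 ± 0.579 (SD, n = 5 each) gave a difference of 0.23 with a 95% interval of -0.29 to 0.74 (limma adjusted p = 0.9997). Without mutant 11 it was 0.47, and with the caudal Hox score in the model it was -0.28 (limma adjusted p = 1.0 for both).

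**Figure D3:**
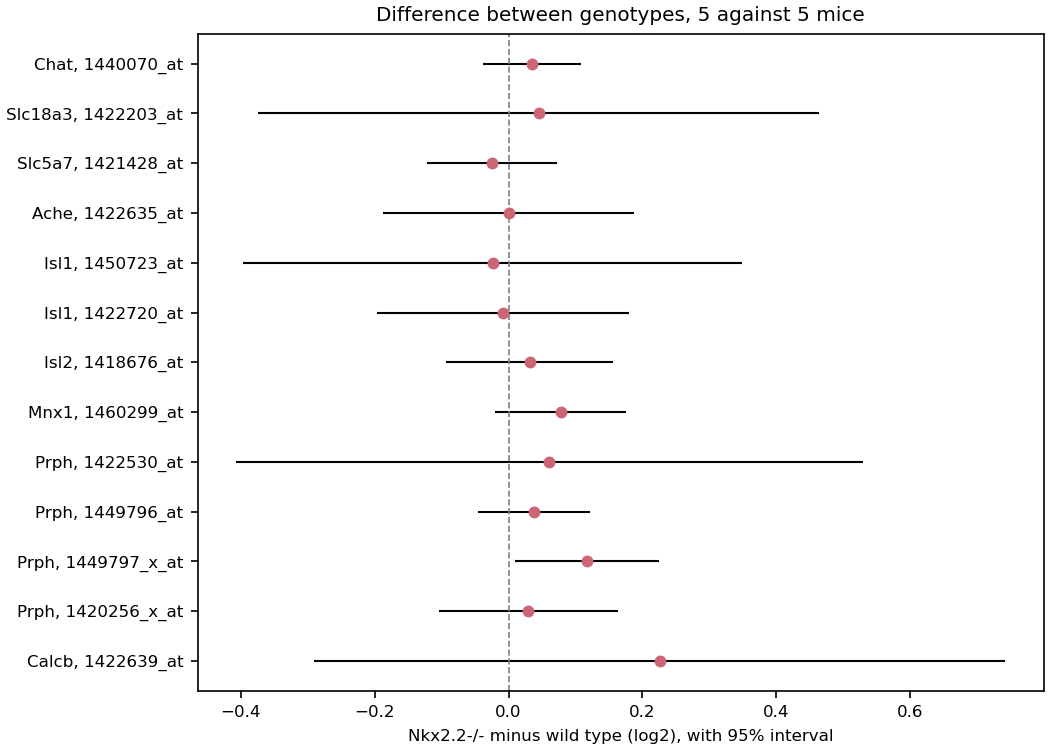
Difference between Nkx2.2-/- and wild-type means in log2 units for the 13 member probe sets, as points with the 95% interval of the limma fit as lines (5 against 5 mice). The 1 interval that does not include 0 is that of the third Prph probe set listed, 0.01 to 0.22, which did not pass after adjustment, and the interval of Calcb is the widest.

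The members were then set against Hox scores, taken as stand-ins for the level of the dissected block. Several genes of the caudal score were nearly flat, among them Hoxa9 and Hoxd10, with ranges of 0.16 and 0.22 over mice. The 3 mice of highest caudal score were all Nkx2.2-/-. A group difference in level thus cannot be told apart from an effect of genotype on Hox genes. In a fit of every probe set on genotype and the caudal Hox score, 0% of all probe sets and so 0 of the 13 members passed (limma, Benjamini-Hochberg). At an unadjusted limma p under 0.05 there were 2 of 13 members, Calcb and Ache, beside 2504 of all probe sets or 5.56%. Calcb had a slope of 2.11 log2 units per unit of score (SE 0.380, 95% interval 1.26 to 2.96, limma adjusted p = 0.569). The slope of Ache was 0.65 (SE 0.189, limma adjusted p = 0.800), and that of the brightest Prph probe set was 1.24 (SE 0.584, limma adjusted p = 0.916). The wild-type mice alone span 4.93 to 5.18 on this score. By value, the 3 mice of highest caudal score and high Hoxc8, mutants 22, 29 and 43, were also the 3 highest for Calcb. The lowest Calcb values, 5.40 and 5.84, belonged to mutant 11 and wild-type mouse 18, the mice of low cervical score. The remaining 5 mice lay within 6.16 to 6.26.

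A second fit used the cervical Hox score, chosen after seeing that it separated mice 18 and 11 from the rest. It called 0.0422% of all probe sets and 0 of the 13 members. Hoxa5 and Hoxb5, which are part of the score, were among those called, so that share was partly fixed in advance. Calcb and Ache were again the 2 members at an unadjusted limma p under 0.05, beside 4.11% of all probe sets, and since both fits use the same mice the second adds no independent support. The slopes were 0.52 for Calcb (SE 0.129, limma adjusted p = 0.477), 0.15 for Ache (SE 0.0594, limma adjusted p = 0.9998), 0.30 for Prph (SE 0.164, limma adjusted p = 0.9998) and 0.15 for the brighter Isl1 probe set (SE 0.144, limma adjusted p = 0.9998). These slopes rested largely on mutant 11. Without it the cervical slope was 0.26 for Calcb, 0.05 for Ache, -0.02 for Prph and -0.06 for Isl1. The caudal slope without it was 1.22 for Calcb, 0.32 for Ache, -0.08 for Prph and -0.37 for Isl1 (limma adjusted p = 0.999 for each). Wild-type mouse 18 had the lowest cervical score of all and yet a mid-range Prph value of 7.66. Tests of genotype differences in cervical slope gave unadjusted limma p-values of 0.00397 for Isl1, 0.00426 for Prph, 0.00369 for Calcb and 0.0270 for Ache. The limma adjusted p was 0.859 for each. These were 4 of 13 members, each by its brightest probe set, beside 4.76% of all probe sets. The slope in Nkx2.2-/- mice minus that in wild type was 0.72, 0.82, 0.65 and 0.25 in the same order. Between the wild-type mice of lowest and highest cervical score, 18 and 21, Isl1 went from 6.22 to 5.79 and Prph from 7.66 to 7.47. Calcb went from 5.84 to 6.24 and Ache from 7.31 to 7.36. Wild-type mice 14, 15 and 16 had cervical scores of 7.67, 7.45 and 7.72, against 6.20 in mouse 18. Their Isl1 values (6.17, 6.43 and 5.99) and Prph values (7.98, 7.81 and 7.36) lay on both sides of mouse 18. Their Calcb values (6.23, 6.22 and 6.16) and Ache values (7.41, 7.41 and 7.36) all lay above it. The wild-type slopes thus rest largely on mouse 18. The tests of slope differences were not rerun without mutant 11. The dimmer Isl1 probe set had an unadjusted limma p of 0.147 and the other 3 Prph probe sets 0.561, 0.301 and 0.205 in the cervical test. The planned form of this test used the caudal Hox score. It called 0 members and had 2 of 13 at an unadjusted limma p under 0.05, beside 2.95% of all probe sets. Its unadjusted limma p-values were 0.0283 for the brighter Isl1 probe set, 0.0157 for the brightest Prph one, 0.202 for Calcb and 0.154 for Ache.

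**Figure D4:**
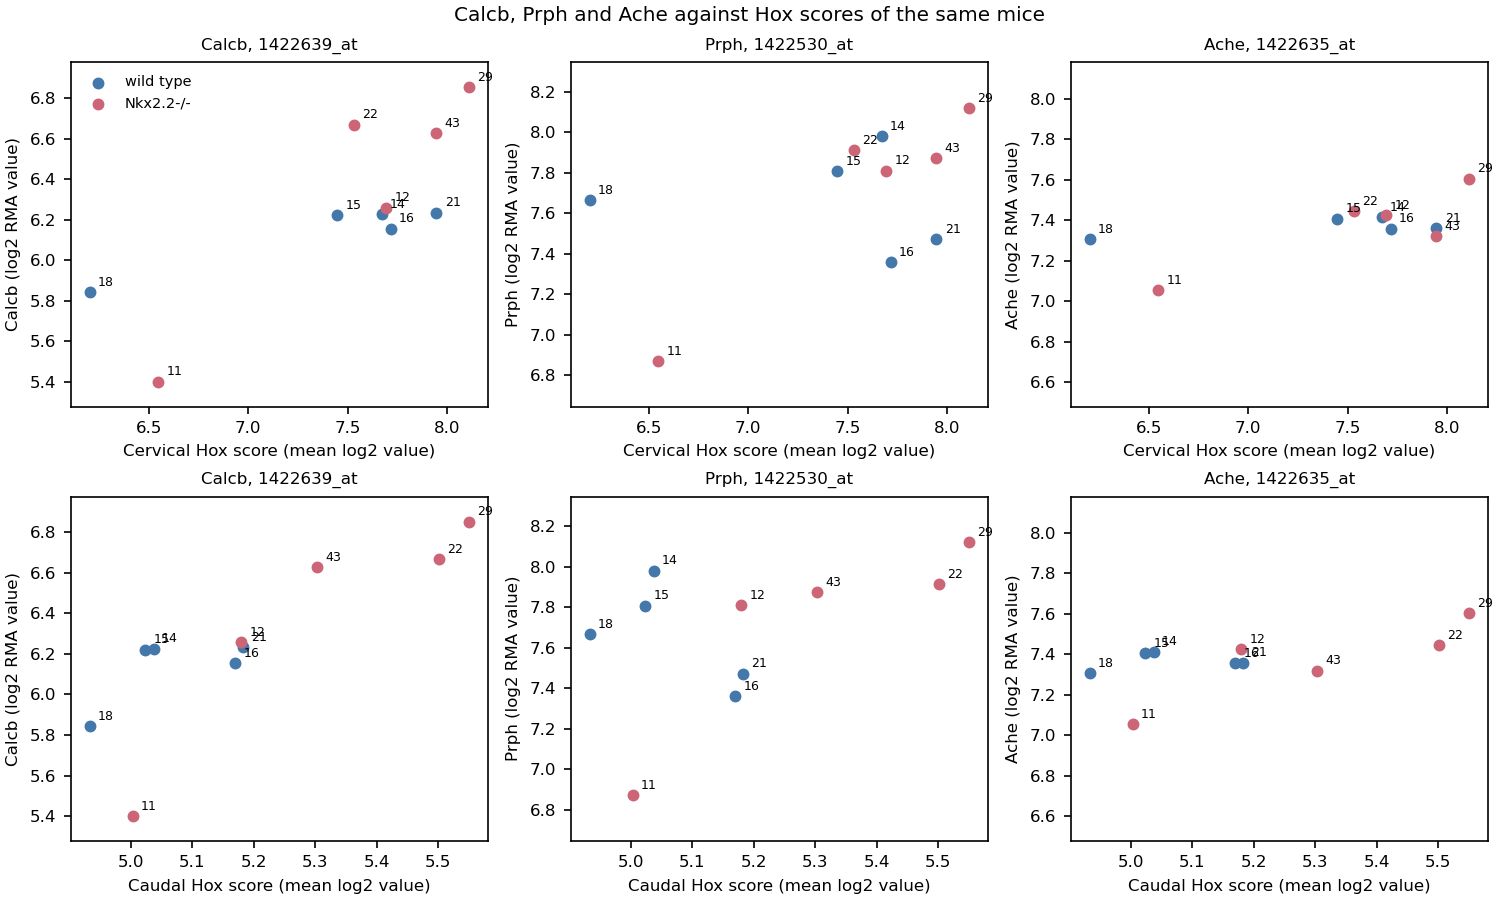
Log2 RMA values of Calcb, the brightest Prph probe set and Ache against the cervical Hox score (upper row) and the caudal Hox score (lower row) of the same mice, 1 point per mouse with its number. Calcb is lowest in mice 11 and 18 and highest in mice 22, 29 and 43, whereas Prph is low in mutant 11 only.

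Marker lists of neighbouring tissues were read in the same mice. Calcb, Prph and Isl1 are also expressed in sensory ganglia, and the mean of 10 measured ganglion genes was 5.25 in mutant 11 and 5.28 in wild-type mouse 18, against 5.40 to 5.49 in the other 8. This lower mean reflects 2 of the 10 genes. Of these Pou4f1, a factor of sensory neurons and of some brainstem neurons, was at 5.35 and 5.24 in these mice and at 6.12 to 6.82 in the rest. Sncg, gamma-synuclein of sensory and motor neurons, was at 7.14 and 7.46 against 7.62 to 8.19. In the other 8 genes mice 11 and 18 were not the lowest pair, and Runx1, of nociceptor precursors, was highest of all in mutant 11, at 5.84. Over the list 4 of 10 cervical slopes were positive, with a median of -0.005. The nociceptor genes Scn10a and Trpv1, dim throughout, stayed between 4.14 and 4.64 on every array. With the ganglion mean as a second covariate the caudal slope of Calcb was 1.27 (limma adjusted p = 1.0) and its cervical slope was -0.08 (limma adjusted p = 0.999). The ganglion mean and the cervical score were both lowest in mice 18 and 11. Pou4f1 itself was called on the cervical score (slope 0.87, limma adjusted p = 0.00237). The fit with both therefore cannot separate the ganglion mean from the cervical score. Of 13 genes of the cerebellum, which lies next to the pons, 1 had a positive cervical slope (median -0.34). Their mean was 7.13 in wild-type mouse 18 and 6.93 in mutant 11, 6.75 in wild-type mouse 21 and 6.11 to 6.28 in the others. With that mean as second covariate the caudal slope of Calcb was 1.67 and the cervical one 0.38 (limma adjusted p = 0.622 and 0.850). The mean of 13 skeletal muscle genes, of interest because muscle makes Ache, was 5.01 and 5.11 in mutants 29 and 43 and 4.78 to 4.89 in the rest. Its part in the Ache values was not tested.

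Other genes of the pathway, taken from lists by role and read by their brightest probe set, were likewise not called between genotypes, apart from Nkx2-2. Among transcription factors of motor neurons 0 of 18 measured rose or fell, with a median change of 0.01. Of these, Olig2, which specifies motor neuron and oligodendrocyte progenitors, had a log2 change of 0.13, Pou3f1, of certain motor columns, one of -0.08 and Ebf1, of differentiating neurons, one of 0.32. Of 19 measured genes of postmitotic motor neurons 0 passed (median 0.06), with Mmp9 of fast motor neurons at -0.13, Stk32a at 0.07 and the receptor Met at -0.16. For visceral and branchial motor neuron factors the count was 0 of 7 (median -0.02), with Gata3 at -0.18, Tbx20 at -0.14 and Phox2a at -0.05. All these limma adjusted p-values were 1.0.

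On the receiving side, 0 of 15 measured nicotinic subunits and 0 of 3 muscarinic receptors passed, with medians of 0.01 and -0.01. The muscle subunits Chrnd, Chrne and Chrna1 had log2 changes of 0.08, 0.05 and -0.05, and the muscarinic receptors Chrm1, Chrm3 and Chrm4 of -0.07, 0.05 and -0.01. Of 9 measured genes of choline metabolism and cholinesterase anchoring 0 passed (median -0.01). The choline transporter-like protein Slc44a1 stood at a log2 change of -0.23 (limma adjusted p = 1.0), butyrylcholinesterase Bche at -0.11 and choline kinase Chka at 0.06. Of 9 measured genes of the calcitonin peptide family and its receptors 0 passed (median 0.02), with the receptor partner Ramp2 at -0.16, and the adrenomedullins Adm and Adm2 at 0.08 and 0.06. Of 6 intermediate filament genes 0 passed (median 0.03): the glial and progenitor filaments Vim and Nes had log2 changes of -0.39 and -0.10 and the neurofilament Nefl one of 0.08. Of 12 LIM homeobox genes and partners 0 passed (median -0.02), with Lhx9 at -0.19, Lmo3 at 0.21 and Lmx1b at 0.15. Among 9 measured factors of V3 and V2 interneurons, the neighbours of motor neurons, Nkx2-2 alone fell, by 2.05 (limma adjusted p = 7.23e-05), while Gata3 and Shox2 had log2 changes of -0.18 and -0.21. In the caudal Hox fit 0 genes of these lists passed.

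The genes most like the cholinergic trio were sought among 12094 genes whose brightest probe set lay above the median probe set, by Pearson's r of deviations from the genotype means over 10 arrays. They were chosen as the highest of all, so r is a description with no test. The mean of the trio is in effect Slc18a3, whose deviations correlated with it at r = 0.985, against -0.562 for Chat and 0.173 for Slc5a7. For the mean of Chat, Slc18a3 and Slc5a7 they were Zfp593 (r = 0.970), Tmem59l (0.959), Hspbp1 (0.957), Fam98c (0.951) and Amn (0.947). Being matched to the values of Slc18a3, they share its low arrays by selection, and their slopes on the Gapdh difference are no further result. For the brightest Prph probe set they were Sema4a (r = 0.970), Rgs19 (0.966), Ptpn5 (0.955), Tmem150c (0.955) and Hs3st4 (0.949), and 0 of these passed in the genotype fit.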

How the data were processed

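Expression of 10 mice, 5 wild type and 5 Nkx2.2-/-, was taken from the deposited value table. Its values are log2 expression values made by the authors with RMA per the submitters' processing notes (no version named there). RMA gives arrays a shared distribution and no detection calls. Differences of dim probe sets may be compressed. The number of arrays limits the precision. The table has 45101 probe sets, 64 of them controls that entered no fit. In the platform annotation 34945 of the rest had 1 gene symbol, 932 several and 9160 were unnamed here, and 18193 genes had a brightest probe set. Dim probe sets were kept.

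Each probe set was fitted by limma 3.58.1 (lmFit, eBayes) in R 4.3.3, on genotype alone and on genotype with a Hox score, and p-values were Benjamini-Hochberg adjusted over all 45037 probe sets at 0.05. Differences are Nkx2.2-/- minus wild type. A slope is in log2 units per log2 unit of the score, within genotype, and a score is the mean of log2 values over the brightest probe sets of a list. Of 15 listed caudal Hox genes 13 were measured. The cervical Hox score and the fit on the Gapdh difference were chosen after seeing the data. Members and lists were chosen with earlier results of these data known, so no list was tested as a whole. Named genes were all member probe sets, Nkx2-2, the Hox genes of widest range, up to 3 genes of lowest p for each list of the pathway, and the 5 genes most like the cholinergic mean or Prph. That second target was to be the mean of Calca and Prph, and Prph alone was used. Pou4f1, Sncg, Scn10a and Trpv1 were named outside the rule, after their values were seen. The marker lists of forebrain and midbrain, forebrain cholinergic neurons, Schwann cells, red cells, meninges and rostral Hox genes had 0 genes called between genotypes. All 8 meningeal genes were lower in Nkx2.2-/- mice, with a median log2 change of -0.40. On the cervical score Gbx1 of the forebrain cholinergic list and Hoxa4 and Hoxc4 of the rostral Hox list were called (limma adjusted p = 0.00153, 0.00237 and 0.000402). The fits were tested on simulated data. Promoter windows came from RefSeq tables of GRCm38.p6, which were matched by gene symbol and not by probe position. Tables were prepared with pandas 2.3.3 in Python 3.11.15 and drawn with matplotlib 3.10.9. The alternatives were other normalizations, priors, array weights, a filter on dim probe sets, 1 value a gene, other scores and covariates, a threshold of 0.1 and leaving out arrays.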

Additional observations from a re-analysis of the deposited data

Results flagged for a closer look

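Within the 5 arrays of a genotype, single mice stood apart from the others in 7 of 34 groups examined (13 member probe sets and 4 list means in each genotype), by a gap to the nearest mouse of over 0.71 of the group's range. About 1 in 20 groups would be marked by chance, and the 7 share mice. Wild-type mouse 18 was low for Chat (5.03), Calcb (5.84) and the cervical Hox score (6.20). Nkx2.2-/- mouse 11 was low for the brightest Prph probe set (6.87) and the ganglion gene mean (5.25) and high for the cerebellum mean (6.93). Wild-type mouse 14 was low for Slc18a3 (5.05). For Chat the gap is within a group range of 0.08.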

How the results depend on the processing

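No member passed for genotype or for either Hox score in any of the alternatives run (315, 354 and 60 values, lowest limma adjusted p of 0.625, 0.189 and 0.215); cervical slopes were rerun for Calcb, Ache, Prph and Isl1 only. For values that had not passed, a change of sign was counted where the value moved by more than its spread (the SD within genotypes, or the SE of a slope). For genotype these were Ache at -0.15 and Calcb at -0.28 with the caudal Hox score as covariate. For the caudal slope, without 1 array it ran from -0.37 to 0.90 for the brighter Isl1 probe set, from -0.36 to 0.0347 for Isl2, from -0.0064 to 0.21 for Mnx1 and from -0.0844 to 1.46 for the brightest Prph probe set, each extreme nearest or past 0 without mutant 11. The brighter Isl1 probe set was at -0.012 with standardized values and -0.11 with the ganglion mean, the dimmer at -0.11 without the arrays of most distant score (mutants 29 and 22), and the third brightest Prph probe set at 0.0759 without a genotype term. The cervical slope without 1 array ran from -0.0608 to 0.41 for Isl1 and from -0.0197 to 0.64 for Prph. It was -0.0903 for Prph without mice 18 and 11 and -0.0164 for Isl1 with the cerebellum mean. With the ganglion mean it was -0.12, -0.52, -0.46 and -0.0833 for Ache, Isl1, Prph and Calcb. Both means set mice 18 and 11 apart, as the cervical score does, so these fits cannot separate them from that score. The cause of the changes of sign was not tested. Over all probe sets, genotype called 11 with 1 probe set a gene and 12 with a gene's mean, where fewer features were tested, and 15 with the caudal Hox score. The caudal fit called 1 with paralog groups 8 to 10, 1 with HoxC genes and 2 without the arrays of most distant score. The cervical fit called 19, and 7 to 70 without 1 array: 7 without either mouse 18 or mouse 11, 9, 10 and 70 without wild-type mice 16, 14 and 21 and 12 without mutant 12. It called 0 without mice 18 and 11, 2 with the cerebellum mean and 0 with the ganglion mean. The Gapdh fit called 5307, and 715 to 6350 without 1 array: 2500 when wild-type mouse 14 was left out, 715 when mutant 43 was and 0 without both, where the Slc18a3 slope was 0.12. The caudal score difference was 0.24 with paralog groups 8 to 10 and 0.43 with HoxC genes (exact two-sided p = 0.0159 each). Without 1 array it ran from 0.18 to 0.31, the latter without mutant 11 (exact two-sided p = 0.0159). The members' median change ran from -0.02 to 0.08. No paired analysis was possible because the labels do not give the litter of a mouse. Slc5a7 and Mnx1 are dim and Chat lies at the array medians, with 50.4% of all probe sets below it. Changes in these genes may be compressed.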
